A study of Mus musculus with 18 samples.

Results

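The genes described are 9 transcripts used to recognise astrocytes and radial glia in mouse cortex: the enzyme Aldh1l1, the calcium-binding protein S100b, the growth factor receptor Fgfr3, the transcription factors Sox9, Sox2 and Nfia, the lipid carrier Fabp7, and Btbd17 and Ndrg2. They were taken by symbol from 3 deposited tables, each of which holds the same 13784 genes, and all 9 were found in all 3 tables. The 9 genes were chosen by their fold changes and false discovery rates (FDRs) in these same 3 comparisons, so the values below describe the 9 genes, and counts over them support nothing further.

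The study measured RNA from dissected whole cortex of 18 mice to look at loss of Chd8, a chromatin remodeller linked to autism, in astrocytes, at baseline and during neuroinflammation. Lipopolysaccharide (LPS), a bacterial cell wall component, was used to provoke inflammation. Control mice received saline (n = 4) or LPS (n = 5). Mice in which Chd8 was conditionally deleted in astrocytes (cKO) likewise received saline (n = 4) or LPS (n = 5). LPS was injected into the abdominal cavity at 5 mg/kg into mice between 4 and 6 months of age, and tissue was taken 72 hours later. The driver of the deletion, the control genotype's alleles and the strain are not given in the sources used here. Every library title carries the word saline, so groups were read from the genotype label; its treatment word and the separate treatment label are the same in all 18 mice.

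Radial glia are the stem cells of the developing cortex, and astrocytes descend from them. Sox9 and Nfia switch progenitors towards astrocyte fate and stay on in mature astrocytes, Sox2 maintains the progenitor state and remains in adult astrocytes, and Fabp7 (brain lipid-binding protein) is a classical radial glia marker that persists at low level in part of the adult astrocytes. Aldh1l1, a folate enzyme, labels astrocytes across the cortex. After an immune challenge astrocytes are known to become reactive, with more of the filament proteins Gfap and vimentin, while other astrocyte genes can move in either direction.

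The values are the authors' own comparisons; values per mouse were not used here, so neither the depth of a library nor the spread between mice is known and no library could be left out. Group levels in CPM (counts scaled to library size) were back-calculated from the deposited fold change and mean level, are estimates without an error, and are compared between groups only, never between genes. In whole cortex, fewer cells of a type and less RNA per cell cannot be told apart. The back-calculated log2 CPM of Chd8 itself was 6.615 in control saline, 6.955 in control LPS, 6.511 in cKO saline and 6.959 in cKO LPS. The LPS groups of both genotypes differed in Chd8 by 0.02 ± 0.05 (SE, log2, FDR = 0.901) in the authors' deposited table. The saline estimate, which has no test, was -0.09, so this whole-tissue level does not check the genotype labels. After LPS, Chd8 rose by 0.34 ± 0.08 (FDR = 0.0312) in controls and by 0.45 ± 0.07 (FDR = 0.00597) in cKO mice in the authors' deposited tables. The Y-linked gene Ddx3y stood at a log2 CPM of -7.185 in the control saline group and between 3.683 and 5.873 in the other 3 groups. Uty, also Y-linked, stood at -7.345 and between 2.465 and 4.799. The X-linked gene Xist stood at 7.469 in control saline, 7.332 in control LPS, 4.346 in cKO saline and 5.907 in cKO LPS. Ddx3y and Uty passed an FDR of 0.05 with LPS in controls (0.0351 and 0.0377). They passed neither with LPS in cKO mice (0.941 and 0.782) nor between genotypes after LPS (0.764 and 0.823). The control saline group also enters the difference of LPS responses and the saline estimate. The group labels do not give sex, so sex and group cannot be told apart in the results below. The part of these differences in those results was not tested.

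Fabp7, Btbd17 and S100b are the 3 genes of the list that fell after LPS in cKO mice, and their upstream regions are shown to let the base composition and the SOX and NFI letters be seen next to the values. Each sequence covers the 250 bases before the RefSeq start site, 5′ to 3′ on the gene's strand, in build GRCm38.p6. Fabp7 lies at chr10:57784673-57784922 (+), Btbd17 at chr11:114795893-114796142 (-) and S100b at chr10:76253586-76253835 (+). Capitals mark ACAAT, the core letters bound by SOX factors, and TTGGC, the core letters bound by NFI factors, on either strand.
Fabp7: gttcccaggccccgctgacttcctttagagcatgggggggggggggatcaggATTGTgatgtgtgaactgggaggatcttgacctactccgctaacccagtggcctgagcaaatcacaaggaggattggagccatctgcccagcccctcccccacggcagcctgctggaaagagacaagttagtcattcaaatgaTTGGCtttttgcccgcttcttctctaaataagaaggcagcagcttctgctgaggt
Btbd17: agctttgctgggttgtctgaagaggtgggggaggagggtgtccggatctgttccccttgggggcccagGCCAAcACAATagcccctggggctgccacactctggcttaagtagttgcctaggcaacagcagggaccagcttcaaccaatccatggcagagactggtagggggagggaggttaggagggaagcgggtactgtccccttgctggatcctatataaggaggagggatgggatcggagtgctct
S100b: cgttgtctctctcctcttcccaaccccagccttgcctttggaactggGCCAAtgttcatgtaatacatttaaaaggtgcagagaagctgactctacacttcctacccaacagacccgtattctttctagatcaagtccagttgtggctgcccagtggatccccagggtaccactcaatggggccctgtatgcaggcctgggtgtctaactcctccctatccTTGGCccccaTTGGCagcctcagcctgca
ACAAT or its reverse complement was found once upstream of Fabp7, once upstream of Btbd17 and 0 times upstream of S100b. TTGGC was found once each for Fabp7 and Btbd17 and 3 times for S100b. Of all 32851 upstream regions of the same length, 27.7% hold ACAAT and 41.5% hold TTGGC on either strand.

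RefSeq upstream regions matched 8 of the 9 genes, 11 regions in all, with 2 for Fgfr3 and 3 for Ndrg2; Sox9 had no entry. Beyond the 3 shown, ACAAT occurred upstream of Nfia, and TTGGC upstream of Sox2 and Ndrg2. Thus 3 of the 8 genes held ACAAT and TTGGC was held by 5 of 8. A gene was counted if any of its regions held the letters, while the shares of all regions count single regions. The counts and the shares are therefore not in the same unit. The letters TGGGAA, the core of the Notch effector RBPJ, stood upstream of 3 of the 8 genes (Aldh1l1, Fabp7 and S100b) and of 21.6% of all regions. TTCNNNGAA, the STAT letters, stood upstream of 0 of the 8 genes and of 7.02% of all regions. CCAAT stood upstream of 7 of the 8 genes and of 33.8% of all regions; its reverse complement shares letters with TTGGC where the run is attggc. The G and C content ran from 44.8% for Nfia to 72.8% for an Fgfr3 region, against a median of 52.4% over all regions. The CpG count was 4 for Fabp7, 3 for Btbd17, 2 for S100b and 1 for Nfia, below the median of 6 over all regions, while Sox2 had 27 and the Fgfr3 regions 19 and 24.

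In control mice, 3 of the 9 genes (Fabp7, Btbd17 and Fgfr3) were lower after LPS and 1 (Nfia) was higher in the authors' deposited table, with an FDR under 0.05 taken as the threshold throughout. Of all 13784 genes, 9.76% passed in this comparison, 3.31% as lower and 6.46% as higher. In cKO mice, 3 of the 9 genes (Fabp7, Btbd17 and S100b) were lower and 0 higher in the authors' deposited table, where 19.5% of all genes passed, 8.52% as lower and 10.9% as higher. Fabp7 and Btbd17 passed as lower in both genotypes, as did 1.58% of all genes. Between cKO and control mice after LPS, 0 of the 9 passed the edgeR FDR, and 3 had an unadjusted p below 0.05, against 0.00725% and 12.3% of all genes. The median log2 fold change of the 9 genes was -0.11 in controls and -0.03 in cKO mice, beside medians of -0.002662 and -0.001282 over all genes.

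**Figure D1:**
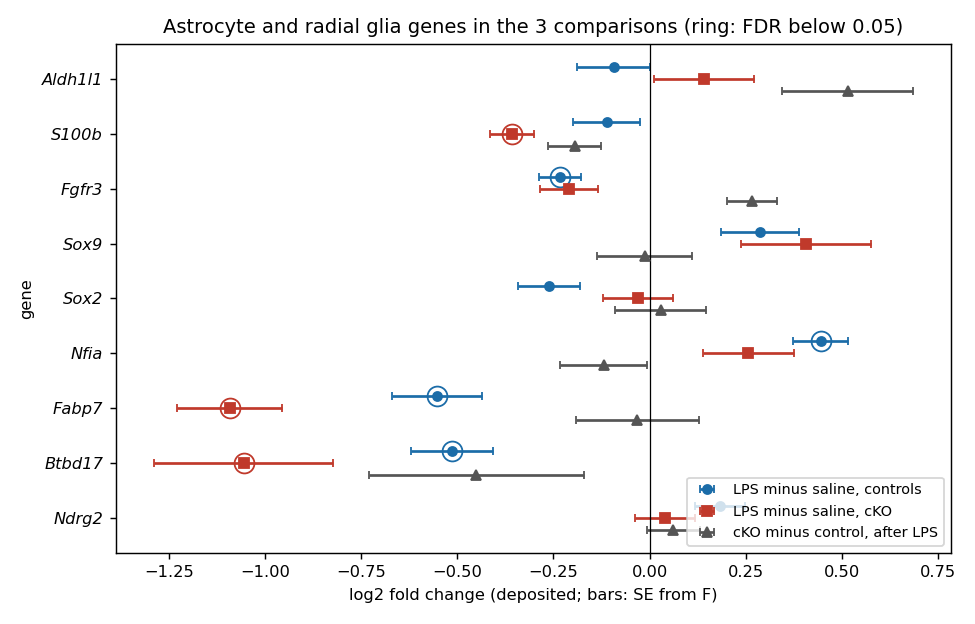
Log2 fold change (x axis) of the 9 genes (y axis) in the 3 deposited comparisons; points are the deposited values, bars the standard error derived from F, and rings mark an FDR below 0.05. Fabp7 and Btbd17 lie below 0 by -0.55 and -0.52 in controls and by -1.09 and -1.06 in cKO mice.

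Fabp7, which carries fatty acids in radial glia and in part of the adult astrocytes, had the largest falls of the 9 genes in both genotypes. Its back-calculated level was 13.9 CPM in control saline, 9.48 in control LPS, 20.6 in cKO saline and 9.68 in cKO LPS. The LPS groups of both genotypes thus stood at similar levels, while the saline groups did not. Fabp7 fell by 0.55 ± 0.12 (log2 fold change ± SE, FDR = 0.0223) in controls and by 1.09 ± 0.14 (FDR = 0.00406) in cKO mice in the authors' deposited tables. Among all genes these log2 fold changes lay at percentiles 0.711 and 0.181. In the authors' deposited table of genotypes after LPS, Fabp7 differed by -0.03 ± 0.16 (FDR = 0.956), with a 95% interval from -0.396 to 0.332.

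The fall of Fabp7 was -0.54 ± 0.30 (log2) further in cKO than in control mice, with a 95% interval from -1.13 to 0.05. The test of this difference, adjusted over all 13784 genes, gave an adjusted p = 0.8 and did not pass. With standard errors from F, the kind printed for the separate responses, the same difference had an SE of 0.18 and a 95% interval from -0.891 to -0.186. The adjusted p was then 0.15, which did not pass either. For a difference of responses with errors from F, here and below, no allowance was made for the small degrees of freedom. Such intervals are too narrow and such p-values too low. The other members of the fatty acid binding protein family in the tables were Fabp3 and Fabp5, and neither passed in any comparison. Fabp3, the heart-type carrier, had -0.16 ± 0.06 in controls and -0.24 ± 0.09 in cKO mice in the authors' deposited tables. Fabp5, the epidermal-type carrier, had -0.23 ± 0.07 and -0.10 ± 0.09 in the same authors' deposited tables, and 0.45 ± 0.09 (FDR = 0.176) between genotypes after LPS.

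Btbd17, which encodes a BTB-domain protein and is enriched in astrocytes and their progenitors, fell after LPS by amounts close to those of Fabp7. Across the 4 groups the courses differed. The saline levels of Btbd17 lay closer together between genotypes than those of Fabp7, and its LPS levels lay further apart. Its back-calculated level was 14.9 CPM in control saline, 10.5 in control LPS, 16.7 in cKO saline and 8.03 in cKO LPS. Both LPS groups were lower than both saline groups. Btbd17 fell by 0.52 ± 0.11 (FDR = 0.0203) in controls and by 1.06 ± 0.23 (FDR = 0.017) in cKO mice in the authors' deposited tables. The further fall in cKO mice was -0.54 ± 0.36 (adjusted p = 0.838 over all genes, 95% interval from -1.25 to 0.163). With standard errors from F, the kind printed for the separate responses, the SE was 0.257 and the 95% interval from -1.04 to -0.0377. This interval makes no allowance for the small degrees of freedom and is too narrow, so it does not show that the difference excludes 0. The adjusted p was then 0.423, and the difference passed by neither error. After LPS, cKO stood below control mice by -0.45 ± 0.28 (FDR = 0.542) in the authors' deposited table, a difference whose 95% interval from -1.09 to 0.185 holds 0.

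**Figure D2:**
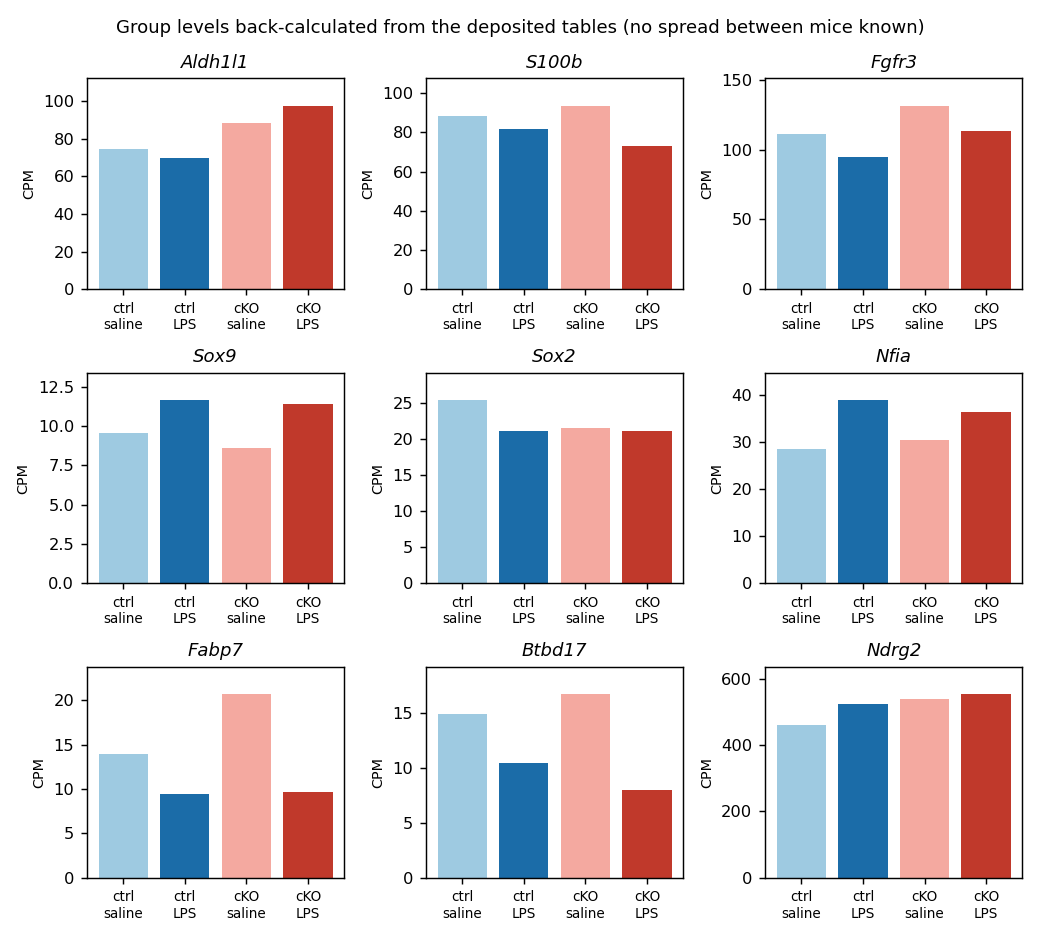
Back-calculated level in CPM (y axis, from 0) of each of the 9 genes in control saline, control LPS, cKO saline and cKO LPS (x axis); bars are estimates from the deposited tables and carry no error because values per mouse were not used. Fabp7 stands at 13.9, 9.48, 20.6 and 9.68 CPM in that order.

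S100b, a calcium-binding protein of mature astrocytes that oligodendrocytes also express, was lower after LPS past the threshold in cKO mice. The back-calculated level was 88.4 CPM in control saline, 81.9 in control LPS, 93.4 in cKO saline and 72.9 in cKO LPS. S100b fell by 0.36 ± 0.06 (FDR = 0.00653) in cKO mice and had -0.11 ± 0.09 (FDR = 0.432) in controls in the authors' deposited tables. The difference between these responses was -0.25 ± 0.13 (adjusted p = 0.772, 95% interval from -0.502 to 0.00946). With standard errors from F, the kind printed for the separate responses, the SE was 0.104 and the 95% interval from -0.45 to -0.0427, again too narrow. The adjusted p was then 0.333 and did not pass either, so a response in cKO mice alone was not shown. After LPS the cKO level was lower by -0.19 ± 0.07 (FDR = 0.334; 95% interval from -0.351 to -0.0389) in the authors' deposited table. Of 8 oligodendrocyte marker genes, 0 passed in either LPS comparison, with medians of -0.07 in controls and -0.13 in cKO mice. Among 5 other S100 genes in the tables, S100a1 rose by 0.31 ± 0.08 (FDR = 0.0358) in controls in the authors' deposited table, and no other member passed in any comparison.

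Aldh1l1, which oxidises formyl-tetrahydrofolate, passed the threshold with LPS in neither genotype. The back-calculated level was 74.6 CPM in control saline, 69.9 in control LPS, 88.5 in cKO saline and 97.5 in cKO LPS, so both cKO groups stood above both control groups. The response to LPS was -0.09 ± 0.09 (FDR = 0.547) in controls and 0.14 ± 0.13 (FDR = 0.465) in cKO mice in the authors' deposited tables. Between genotypes after LPS, Aldh1l1 was at 0.51 ± 0.17 (FDR = 0.323; 95% interval from 0.127 to 0.903) in the authors' deposited table, the highest value of the 9 genes and at percentile 98.2 of all genes, without passing the FDR. Of 18 folate and one-carbon enzymes in the tables, 0 passed in controls, and Shmt2, the mitochondrial serine hydroxymethyltransferase, rose alone in cKO mice (0.45 ± 0.12, FDR = 0.0317) in the authors' deposited table. Beside these counts, 9.76% of all genes passed in controls and 19.5% in cKO mice. The mitochondrial paralog Aldh1l2 had 0.004252 ± 0.20 in controls and 0.03 ± 0.17 in cKO mice in the authors' deposited tables.

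Fgfr3, the fibroblast growth factor receptor most typical of astrocytes, had similar log2 fold changes after LPS in both genotypes and passed in controls. The back-calculated level was 111.5 CPM in control saline, 94.9 in control LPS, 131.3 in cKO saline and 113.5 in cKO LPS. Fgfr3 fell by 0.23 ± 0.055 (FDR = 0.0327) in controls and had -0.21 ± 0.07 (FDR = 0.0757) in cKO mice in the authors' deposited tables. The responses differed by 0.02 ± 0.12 (adjusted p = 0.983), with a 95% interval from -0.205 to 0.252. Both cKO groups stood above the control group given the same treatment, by 0.27 ± 0.07 after LPS (FDR = 0.278; 95% interval from 0.117 to 0.414) in the authors' deposited table.

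The other FGF receptors did not move as one. Fgfr1 rose by 0.41 ± 0.09 (FDR = 0.0192) and Fgfr2 fell by 0.37 ± 0.09 (FDR = 0.0211) in cKO mice in the authors' deposited table. Their values in controls were close, at 0.44 ± 0.14 (FDR = 0.0792) for Fgfr1 and -0.40 ± 0.11 (FDR = 0.0511) for Fgfr2, and passed in neither case in the authors' deposited table. Dusp6, a phosphatase induced by FGF signalling through ERK, fell by 0.79 ± 0.11 (FDR = 0.00496) in cKO mice in the authors' deposited table, and in controls had -0.14 ± 0.22 (FDR = 0.713). The test of that difference gave an adjusted p = 0.699 by the normal-quantile errors. Its result by the errors from F is not given here. In all, of 16 FGF receptor and FGF response genes 0 passed in controls, and 1 rose and 3 fell in cKO mice, the third being the ERK pathway inhibitor Spred1 (-0.31 ± 0.07) in the authors' deposited table. The shares of all genes that passed were 9.76% in controls and 19.5% in cKO mice.

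Of the 3 transcription factors, Nfia rose in controls, and Sox9 and Sox2 passed in no comparison. Nfia, a nuclear factor I protein that starts gliogenesis, had a back-calculated level of 28.6 CPM in control saline, 38.9 in control LPS, 30.5 in cKO saline and 36.4 in cKO LPS. Nfia rose by 0.44 ± 0.07 (FDR = 0.00686) in controls and had 0.26 ± 0.12 (FDR = 0.151) in cKO mice in the authors' deposited tables. The responses differed by -0.19 ± 0.18 (adjusted p = 0.89), which did not pass. Among its paralogs Nfic rose in both genotypes, by 0.62 ± 0.16 (FDR = 0.0377) and 0.56 ± 0.16 (FDR = 0.0356) in the authors' deposited tables. Nfix had 0.43 ± 0.13 (FDR = 0.0652) and 0.37 ± 0.12 (FDR = 0.0654), and Nfib 0.11 ± 0.05 and 0.02 ± 0.08, in the authors' deposited tables, and neither passed.

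Sox9, which acts with Nfia in astrocyte commitment, had back-calculated levels of 9.54 CPM in control saline, 11.6 in control LPS, 8.62 in cKO saline and 11.4 in cKO LPS. Both LPS groups lay above both saline groups. The log2 fold changes were 0.29 ± 0.10 (FDR = 0.0981) in controls and 0.41 ± 0.17 (FDR = 0.115) in cKO mice in the authors' deposited tables, with 95% intervals from 0.0613 to 0.514 and from 0.0294 to 0.786. Neither passed. The genotypes after LPS differed by -0.01 ± 0.12 (FDR = 0.979) in the authors' deposited table. The closely related Sox8 had -0.09 ± 0.13 and -0.14 ± 0.10 in the authors' deposited tables, and passed in neither.

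Sox2, a stem cell factor kept in adult astrocytes and also found in oligodendrocyte precursors, had back-calculated levels of 25.5 CPM in control saline, 21.2 in control LPS, 21.6 in cKO saline and 21.1 in cKO LPS. The highest level was that of control saline, and the other 3 groups lay close together. The response to LPS was -0.26 ± 0.08 (FDR = 0.0669) in controls and -0.03 ± 0.09 (FDR = 0.834) in cKO mice in the authors' deposited tables, and the responses differed by 0.23 ± 0.14 (adjusted p = 0.821). The related factor Sox1 rose by 0.59 ± 0.11 (FDR = 0.0113) and Sox21 fell by 0.36 ± 0.11 (FDR = 0.040) in cKO mice in the authors' deposited table, with 0.13 ± 0.12 and -0.05 ± 0.12 in controls. For oligodendrocyte precursor markers, 1 of 9 passed as higher and 0 as lower in each genotype, with medians of -0.01 and -0.11. The shares of all genes that passed as higher were 6.46% in controls and 10.9% in cKO mice.

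Ndrg2, a stress-responsive member of the NDRG family that is enriched in astrocytes, was at 462 CPM in control saline, 524.8 in control LPS, 538 in cKO saline and 553.3 in cKO LPS by back-calculation. The control saline level was the lowest. Ndrg2 had 0.18 ± 0.06 (FDR = 0.098) in controls and 0.04 ± 0.08 (FDR = 0.741) in cKO mice in the authors' deposited tables, so it passed in neither. After LPS the genotypes differed by 0.06 ± 0.07 (FDR = 0.744; 95% interval from -0.0961 to 0.219) in the authors' deposited table. Of the family, Ndrg1, Ndrg3 and Ndrg4 passed in no comparison; Ndrg1 had -0.39 ± 0.13 (FDR = 0.0767) in controls and -0.22 ± 0.10 in cKO mice in the authors' deposited tables.

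**Figure D3:**
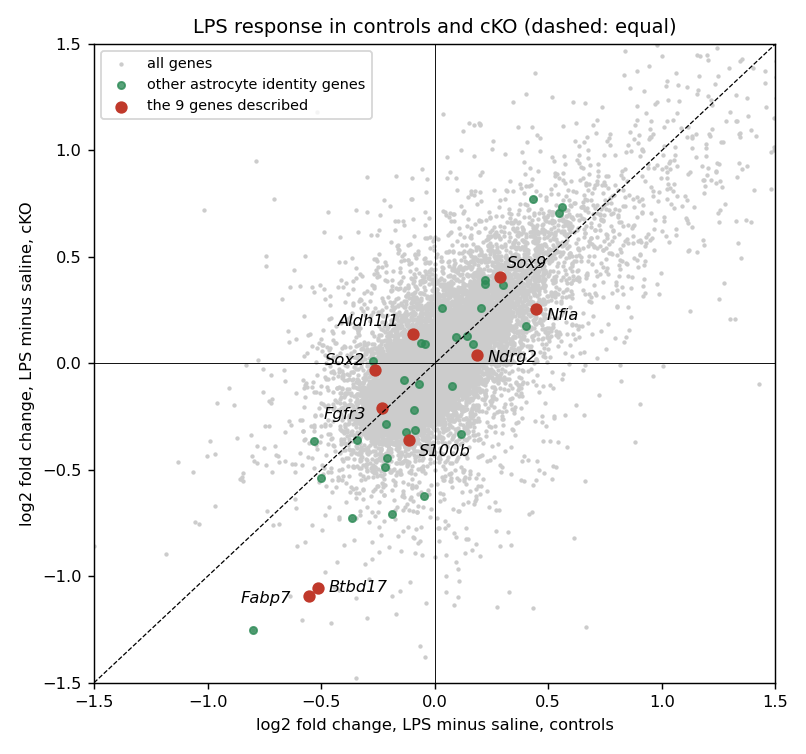
Log2 fold change after LPS in controls (x axis) and in cKO mice (y axis) for all genes (grey), 32 other astrocyte identity genes (green) and the 9 genes described (red, labelled); the dashed line marks equal responses, and 103 genes lie outside the axes. Fabp7 at -0.55 and -1.09 and Btbd17 at -0.52 and -1.06 lie side by side below the dashed line.

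The 9 genes stood among a wider set of astrocyte genes that went both ways. Of 32 other astrocyte identity genes, 3 rose and 7 fell in controls and 6 rose and 12 fell in cKO mice in the authors' deposited tables, against the 9.76% and 19.5% of all genes given above. The list's medians were -0.05 in controls and -0.09 in cKO mice. In the comparison of genotypes 0 of the 32 passed, as in the difference of responses by the normal-quantile errors. Dio2, the deiodinase that activates thyroid hormone in astrocytes, had the largest fall in both, by 0.80 ± 0.14 and 1.25 ± 0.16 in the authors' deposited tables. The sodium pump subunit gene Atp1b2 rose by 0.56 ± 0.10 and 0.74 ± 0.13 in the authors' deposited tables. The potassium channel gene Kcnj10 (0.55 ± 0.15) was next in size in controls, and in cKO mice the adhesion protein gene Hepacam (0.77 ± 0.14) came between Dio2 and Atp1b2, in the authors' deposited tables.

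Among 19 other radial glia and neural stem cell genes, 3 rose and 0 fell in controls, and 3 rose and 2 fell in cKO mice in the authors' deposited tables. Beside these counts, 9.76% of all genes passed in controls and 19.5% in cKO mice. Vim, the filament gene of radial glia and reactive astrocytes, rose by 1.502 ± 0.08 and 1.42 ± 0.30 in the authors' deposited tables, in the opposite direction to Fabp7. The stem cell surface gene Prom1 (0.53 ± 0.10) and the receptor gene Notch2 (0.36 ± 0.07) rose in controls in the authors' deposited table. Prom1 had -0.26 ± 0.10 (FDR = 0.105) in cKO mice in the authors' deposited table. The difference of its responses, -0.78, was the lowest of this list and gave an adjusted p = 0.241 by the normal-quantile errors. Its result by the errors from F is not given here. In cKO mice the RNA-binding protein gene Msi1 (1.06 ± 0.17) and the cortical patterning gene Emx2 (0.59 ± 0.15) rose in the authors' deposited table. Slc1a3, the glutamate transporter gene on both lists (-0.45 ± 0.09), and the patterning gene Lhx2 (-0.20 ± 0.06) fell in cKO mice in the authors' deposited table. The list had a median of 0.11 in controls and 0.12 in cKO mice.

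Of 27 gliogenic transcription factor genes, which share Emx2, Lhx2 and others with the radial glia list, 2 rose and 0 fell in controls, and 3 rose and 3 fell in cKO mice in the authors' deposited tables. The shares of all genes that passed were 9.76% in controls and 19.5% in cKO mice. The control pair was Nfic and Stat3 (0.26 ± 0.06), the signal transducer that drives reactive gliosis, in the authors' deposited table. In cKO mice Sox1, Emx2 and Nfic rose, and Sox21, Pou3f3 and Lhx2 fell. Of 19 reactive astrocyte genes, 12 rose in controls and 7 in cKO mice, with 0 lower in either, in the authors' deposited tables; the list medians were 0.88 and 0.66. The complement genes C3 (3.02 ± 0.31 and 3.73 ± 0.86) and C4b (1.91 ± 0.14 and 1.72 ± 0.36) rose in both genotypes in the authors' deposited tables. Serping1, a complement inhibitor, rose by 1.245 ± 0.14 and 1.48 ± 0.28 in the authors' deposited tables. Lcn2, an iron-binding acute-phase protein, rose in controls in the authors' deposited table from a level too near 0 for a fold change to be given. Gfap, the filament gene of reactive astrocytes, rose by 1.345 ± 0.12 in controls and had 1.06 ± 0.34 (FDR = 0.0548) in cKO mice in the authors' deposited tables.

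**Figure D4:**
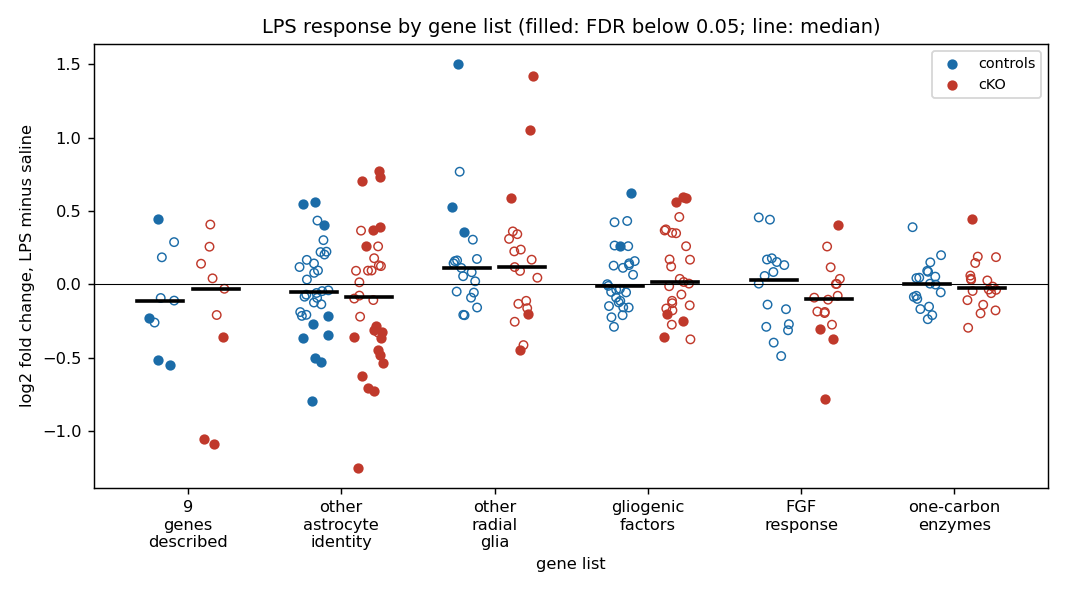
Log2 fold change after LPS (y axis) of each measured gene of 6 lists (x axis) in controls (blue) and cKO mice (red); filled points had an FDR below 0.05 and black lines are list medians. The 9 genes have medians of -0.11 and -0.03, and the 32 other astrocyte identity genes -0.05 and -0.09.

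Between cKO and control mice given saline no comparison was among the tables analysed here, so the difference was computed from the 3 deposited fold changes as a point estimate with no test. Of the 9 genes, 7 had an estimate above 0 and 2 below, and 4 lay above the 95th percentile of all genes. The 9 genes were chosen by the same fold changes that make up this estimate, so these counts and percentiles support nothing further. Fabp7 was at 0.51 (percentile 99.8), Aldh1l1 at 0.28 (98.7), Fgfr3 at 0.24 (98.2) and Ndrg2 at 0.21 (97.3). Sox2 was at -0.20 (percentile 4.34) and Sox9 at -0.13 (8.76). Btbd17, Nfia and S100b had 0.09, 0.07 and 0.05. Approximate standard errors, shared out by group size from those of the LPS comparisons, were 0.134 for Fabp7, 0.120 for Aldh1l1, 0.0691 for Fgfr3 and 0.0759 for Ndrg2. The same construction after LPS gave errors with a median of 0.809 times those of the deposited table over all genes. It shares out 1 summed variance between saline and LPS, so this ratio does not show whether the saline errors are too small or too large. They are rough values only.

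Of the 32 other astrocyte identity genes, 26 had a saline estimate above 0, with a median of 0.10, beside 0.004532 over all genes. Dio2 was highest at 0.48. Other cell types and neighbouring tissue had medians of -0.002023 for 10 excitatory neuron genes, -0.01 for 10 microglia genes, -0.12 for 8 oligodendrocyte genes and 0.26 for 9 striatal genes. Medians were 0.11 for choroid plexus, 0.01 for progenitor division, -0.02 for endothelial, -0.04 for inhibitory neuron and -0.05 for oligodendrocyte precursor genes. They were -0.07 for pericyte, -0.12 for ependymal, -0.14 for olfactory ensheathing and -0.22 for fibroblast genes. All measured choroid plexus genes lay above 0, and all precursor, olfactory ensheathing and fibroblast genes below. The summed level of the striatal markers was 468.1 CPM in control saline, 420.3 in control LPS, 513.1 in cKO saline and 605.6 in cKO LPS, and 9 of 9 had a genotype difference above 0 both in the saline estimate and after LPS, where 0 of 9 passed. The astrocyte identity list summed to 10640 CPM in control saline, 10660 in control LPS, 11680 in cKO saline and 11260 in cKO LPS. How much of any saline estimate goes with the striatal markers or with Ddx3y, Uty and Xist was not tested.

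**Figure D5:**
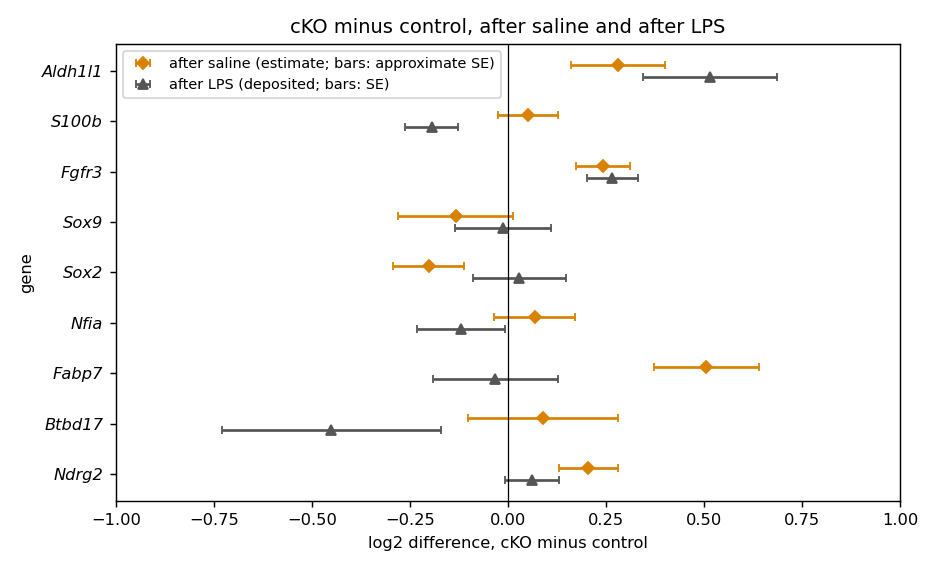
Log2 difference between cKO and control mice (x axis) for the 9 genes (y axis) after saline (diamonds: point estimate, bars: approximate standard error) and after LPS (triangles: deposited value, bars: standard error from F). Fabp7 lies at 0.51 after saline and -0.03 after LPS, while Fgfr3 lies at 0.24 and 0.27.

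Aldh1l1 and Fgfr3 stood higher in cKO mice under both treatments, with 0.28 and 0.51 for Aldh1l1 and 0.24 and 0.27 for Fgfr3. Fabp7 stood higher in cKO mice in the saline estimate and near 0 after LPS. Because the saline estimates use the same LPS libraries as the comparison after LPS, they are not independent of it. The test of the difference of LPS responses passed for 0 of the 9 genes by the normal-quantile errors and for 0 by the errors from F. An unadjusted p below 0.05 was found for 0 of the 9 by the normal-quantile errors, where 6.52% of all genes had one and 0.00725% passed. By the errors from F it was found for 3 of the 9, Fabp7, S100b and Btbd17, where 10.6% of all genes had one. These p-values make no allowance for the small degrees of freedom and are too low. Adjusted over all genes, they were 0.15 for Fabp7, 0.333 for S100b and 0.423 for Btbd17.

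Markers of other cell types moved in the same comparisons. Of 10 microglia genes, 8 rose and 0 fell in controls and 6 rose and 1 fell in cKO mice in the authors' deposited tables, and their summed level went from 371.9 to 647 CPM in controls and from 375.8 to 535.7 CPM in cKO mice. Of 8 endothelial genes 6 rose in controls and 5 in cKO mice, with 0 lower, in the authors' deposited tables. Of 10 excitatory neuron genes 2 rose in each genotype. Beside these counts, 6.46% of all genes passed as higher in controls and 10.9% in cKO mice. The 3 choroid plexus genes in the tables summed to 114.4 CPM in control saline, 11.4 in control LPS, 116.8 in cKO saline and 22.15 in cKO LPS, and 0 of 3 passed. The part of these shifts in the falls of Fabp7, Btbd17, S100b and Fgfr3 was not tested.

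The genes most like 5 of the members across the 4 groups were found by Euclidean distance between centred back-calculated log2 levels, among 12521 named genes whose mean level was at or above a log2 CPM of 1. Nearest to Fabp7 were Dio2 (distance 0.207), Ppp1r3g, a glycogen-targeting phosphatase subunit (0.304), and Rgcc, a cell cycle regulator (0.329). By this measure 0 genes lay within 0.1 of Fabp7 or of Btbd17. Nearest to Btbd17 were the axon guidance receptor gene Robo3 (0.203), the histone gene H3c11 (0.212) and the cytokine gene Il17d (0.255). Aldh1l1 had 10 genes within 0.1, with Zcwpw1 (0.022), the ion channel gene Asic4 (0.046) and Id4, a dominant-negative helix-loop-helix factor of neural progenitors (0.053), as the nearest. Sox9 and Nfia had 187 and 172 genes within 0.1. The levels were not scaled, so genes with larger changes tend to have fewer genes this near. These counts therefore do not say how common the shape of a course was. The nearest were Cchcr1, Klf3 and Prox1 for Sox9, and Kmt2a, Npc2 and Natd1 for Nfia. Among these, Dio2 passed as lower in both genotypes, and Ppp1r3g, Rgcc, Robo3 and Il17d passed as lower in cKO mice, in the authors' deposited tables. Klf3 passed as higher in cKO mice, and Kmt2a, Npc2 and Natd1 as higher in controls, in the authors' deposited tables. H3c11, Zcwpw1, Asic4, Id4, Cchcr1 and Prox1 passed in neither LPS comparison.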

How the data were processed

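Bulk RNA of whole cortex was measured in 18 mice with ribosome-depleted stranded libraries, per the labels' protocols. The submitters' processing notes name cutadapt 3.5, STAR, RSEM, edgeR 3.30.3 and build GRCm39, without roles or order, and how genes were filtered is unknown. The tables as deposited hold these columns, per the file headers: the fold change and the average CPM, both as log2, the F score of the test, its p-value and the FDR. Benjamini-Hochberg values recomputed from the deposited p-values matched the FDR to rounding.

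The headers do not state direction. Levels of the LPS groups calculated from 2 tables each differed by an SD over genes of at most 0.0537 when read as LPS minus saline and cKO minus control, and by 0.226 or more in 1 group under any other reading. Standard errors are the log2 fold change over the root of F. Intervals of the 3 deposited comparisons use degrees of freedom solved from F and p (9.85 for controls, 9.76 for cKO, 8.66 for genotypes). The difference of LPS responses used normal-quantile errors, a two-sided normal test and Benjamini-Hochberg adjustment over 13784 genes. Its intervals used the normal quantile. With errors from F the same normal test and quantile were used, without allowance for the small degrees of freedom. Intervals and p-values from that version are therefore too narrow and too low. On simulated data for this comparison (13784 genes, 200 changed, 20 runs), the test with normal-quantile errors recovered 25.5% of log2 differences of 0.5. It recovered 71.6% of differences of 1 and 94.6% of 2, and 2.30% of its calls were false. In the data only 1 gene passed, so the unadjusted p needed to pass was lower than in the simulation. The recovered shares are therefore likely too high for the data. Members and gene lists were chosen with earlier results of these data known. Named are the 9 members, the 3 genes of each list with the largest changes past the threshold in each LPS table, family members as values, and the 3 genes nearest to 5 members. Slc1a3, Lhx2, Pou3f3, Spred1, Gfap and Serping1 in controls were named after their values were seen. Alternatives were other FDR thresholds, a fold minimum, a filter on low genes, centring, removal of GC and length trends, and errors from F. Upstream sequences are from RefSeq (GRCm38.p6), matched by symbol. Calculations used Python 3.11.15, numpy 2.4.6, pandas 2.3.3, scipy 1.17.1 and statsmodels 0.14.6. Nothing in the labels says more of how the mice of a group were related. The p-values test differences between groups, and whether the samples of a group were independent is not known.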

Additional observations from a re-analysis of the deposited data

How the results depend on the processing

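Calls among the 9 genes in controls depended on the threshold. The count of 4 became 7 at an FDR below 0.1 (3 higher and 4 lower, with Sox9, Sox2 and Ndrg2 added), 1 at an FDR below 0.01 (Nfia) and 0 with a fold change of at least 1.5 required as well. In cKO mice the count of 3 ranged from 2 to 4: Fgfr3 passed at an FDR below 0.1 and after correction for gene GC content and length (-0.31, adjusted p = 0.0266), Btbd17 did not pass at 0.01, and S100b did not reach a fold of 1.5. Leaving genes under a mean log2 CPM of 1 out of the adjustment, or centring on the median of all genes, changed no call of a member in the 3 tables or in the difference of responses. After the same correction, Fabp7 in controls moved to -0.45 (adjusted p = 0.048), and 2 values near 0 changed sign: Ndrg2 in cKO mice (-0.0197) and Sox2 between genotypes after LPS (-0.0089). The count of 0 for genotypes after LPS and for the difference of responses stayed at 0 under every alternative run. Over all genes the difference test called 1 gene by the normal-quantile errors. By the errors from F, used there without allowance for the small degrees of freedom, it called 103. Over all genes the LPS count moved from 1346 in controls to 2557 at an FDR below 0.1, 264 below 0.01 and 498 with the fold minimum, and from 2681 in cKO mice to 4092, 445 and 649. The cause of these changes was not tested. The median saline estimate of the 9 genes was 0.09, and 0.16 from back-calculated levels; the approximate errors of these estimates were added after seeing the data. LPS group levels taken from the table of genotypes differed by up to 0.194 on the log2 scale. No paired analysis was possible because the tables hold comparisons and no values per mouse; for the same reason no mouse could be left out, and depth and its limits are unknown.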
